A study of Mus musculus with 4 samples.

Results

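The VEGF and angiopoietin axis was described in whole lenses from the 10 genes of its ligands and receptors: the VEGF ligands *Vegfa*, *Vegfb* and *Vegfc*, the VEGF receptors *Flt1*, *Kdr* and *Flt4*, the angiopoietins *Angpt1* and *Angpt2*, and the Tie receptors *Tek* and *Tie1*. The genes were taken by name from the 56748 genes of the table, and each of the 10 had 1 row. The lenses were taken at 10 to 12 days of age from mutant mice, *Fsp1-cre;Pdgfrb+/D849V*, and from control mice, with 2 libraries per group, each a pool of lenses from several mice. The mutant mice carry Cre under the *Fsp1* (*S100a4*) promoter and 1 conditional *Pdgfrb* allele that, after Cre acts, encodes the activating D849V change under the gene's own promoter. Neither allele is restricted to the lens, and the reads do not show which cells had recombined. The labels give the controls as *Fsp1-cre;Pdgfrb+/+*, whereas the study's methods describe the control pools as a mixture of this genotype with cre-negative *Pdgfrb+/+* and *Pdgfrb+/D849V* mice, all bred into FVB/N. The line is kept with a *Rosa-LSL-tdTomato* reporter, and its presence in the sequenced mice is not given in the sources used here. P-values measure the spread between these pools.

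The VEGF ligands are secreted growth factors that bind receptor tyrosine kinases on endothelial cells. VEGF-A drives vessel growth through *Kdr*, the main signalling receptor, whereas *Flt1* binds VEGF-A, VEGF-B and placental growth factor and acts largely as a trap, and *Flt4* takes VEGF-C and serves mainly lymphatic vessels. Angiopoietin-1, made by cells around vessels, activates the receptor *Tek* and keeps vessels stable. Angiopoietin-2 is released by endothelial cells and opposes or mimics it depending on the setting, and *Tie1* is the partner of *Tek* that binds no known ligand with high affinity. The mature lens has no vessels, but in the young mouse it is wrapped by the tunica vasculosa lentis, a part of the hyaloid system that regresses after birth, and the lens itself is a known source of VEGF-A for that network. The comparison asked whether these genes differed between mutant and control lenses before cataract is visible. The study described robust activity of the Cre reporter in lens epithelium at an age later than these lenses. It assumed, rather than measured, that the mutant receptor is expressed once Cre acts.

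Promoter sequences in RefSeq matched 8 of the 10 genes, with *Angpt1* and *Angpt2* unmatched. Those of the most abundant ligands, *Vegfa* and *Vegfb*, and of both Tie receptors are shown because the levels below turn on these genes. Each line gives the 250 bases before the annotated start, in GRCm38.p6 and on the gene's strand, from chr17:46032378-46032627 (minus) for *Vegfa*, chr19:6987652-6987901 (minus) for *Vegfb*, chr4:94739039-94739288 (plus) for *Tek* and chr4:118489850-118490099 (minus) for *Tie1*. Capitals mark the letters GGAA (the core bound by ETS factors, which are prominent in endothelial genes), GGGCGG (the SP1 box) and ACGTG (the core of the hypoxia response element), on either strand, and neighbouring matches run together.
*Vegfa*: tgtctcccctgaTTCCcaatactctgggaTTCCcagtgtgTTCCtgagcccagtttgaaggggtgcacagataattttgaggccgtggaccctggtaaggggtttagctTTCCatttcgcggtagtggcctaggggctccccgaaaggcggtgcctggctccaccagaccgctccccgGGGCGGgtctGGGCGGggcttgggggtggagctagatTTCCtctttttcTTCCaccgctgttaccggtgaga
*Vegfb*: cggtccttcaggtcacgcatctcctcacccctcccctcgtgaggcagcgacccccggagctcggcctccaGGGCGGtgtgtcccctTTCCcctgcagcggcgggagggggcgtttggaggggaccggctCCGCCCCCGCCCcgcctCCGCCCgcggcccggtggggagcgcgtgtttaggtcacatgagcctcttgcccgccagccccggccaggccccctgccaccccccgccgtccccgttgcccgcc
*Tek*: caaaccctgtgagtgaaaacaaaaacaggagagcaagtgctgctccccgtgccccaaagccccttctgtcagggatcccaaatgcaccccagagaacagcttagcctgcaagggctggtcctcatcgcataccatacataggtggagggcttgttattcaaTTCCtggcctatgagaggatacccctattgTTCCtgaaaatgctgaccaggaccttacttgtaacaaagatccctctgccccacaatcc
*Tie1*: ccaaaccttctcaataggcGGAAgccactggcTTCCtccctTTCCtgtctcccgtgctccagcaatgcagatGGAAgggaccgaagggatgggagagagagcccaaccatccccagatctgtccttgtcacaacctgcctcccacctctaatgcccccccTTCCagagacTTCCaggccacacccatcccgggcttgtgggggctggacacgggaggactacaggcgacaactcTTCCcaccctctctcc
GGAA was found in 93.4% of the 27025 promoters of the same length, with a median of 3 matches, GGGCGG in 33.0% and ACGTG in 16.5%. The *Tie1* window held 7 matches to GGAA and 0 to GGGCGG, and the *Tek* window held 2 and 0. The *Vegfa* window held 6 matches to GGAA and 2 to GGGCGG, and the *Vegfb* window 1 and 4. None of the 8 windows held ACGTG. The matches describe letters in these windows only.

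The libraries held between 18561682 and 18878768 reads recovered from the deposited FPKM, and crystallin genes took between 58.6% and 62.9% of them. Fibre genes identified the tissue, with *Cryaa* at 66165 to 74239 FPKM and *Cryba1* at 36302 to 47631 FPKM, and the epithelial transcription factor *Foxe3* lay at 103 to 122 FPKM and the basement membrane ligand *Npnt* at 8.10 to 11.3 FPKM. *Lim2*, an abundant membrane protein of lens fibres, was listed at 0 in all 4 libraries, so that a 0 in this table does not show that a gene is silent. *Pdgfrb*, the altered gene, lay at 2.36 and 2.16 FPKM in mutant and 2.25 and 1.79 FPKM in control replicates 1 and 2, which does not tell its alleles apart. *S100a4*, whose promoter drives Cre, lay at 3.84 and 4.37 FPKM in mutant and 2.91 and 1.21 FPKM in control libraries (limma adjusted p = 0.783).

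Young lenses held much VEGF ligand transcript and little receptor transcript. Per length, *Vegfb* was the highest of the 10 genes with a mean of 18.6 FPKM over the 4 libraries (range 17.3 to 21.7), followed by *Vegfa* with 10.1 FPKM (9.04 to 11.2). Both ranked within the top 2.89% of all genes in the table. *Tek* came next with 1.17 FPKM (0.881 to 1.47), then *Angpt2* with 0.757 (0.617 to 1.05), *Tie1* with 0.480 (0.260 to 0.640), *Kdr* with 0.209 (0.187 to 0.230) and *Flt1* with 0.203 (0.140 to 0.312). The lowest were *Flt4* with 0.0592 FPKM (0.0310 to 0.119), *Vegfc* with 0.0332 (0 to 0.133) and *Angpt1* with 0.0101 (0 to 0.0208). Neighbours in this order had ranges that overlapped over the 4 libraries between *Tek* and *Angpt2*, *Angpt2* and *Tie1*, *Kdr* and *Flt1*, *Flt4* and *Vegfc*, and *Vegfc* and *Angpt1*. The ranges of *Vegfb*, *Vegfa* and *Tek* did not overlap, nor did those of *Tie1* and *Kdr* or of *Flt1* and *Flt4*. *Vegfa* exceeded its signalling receptor *Kdr* by 42.9 to 57.3 times in FPKM.

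**Figure D1:**
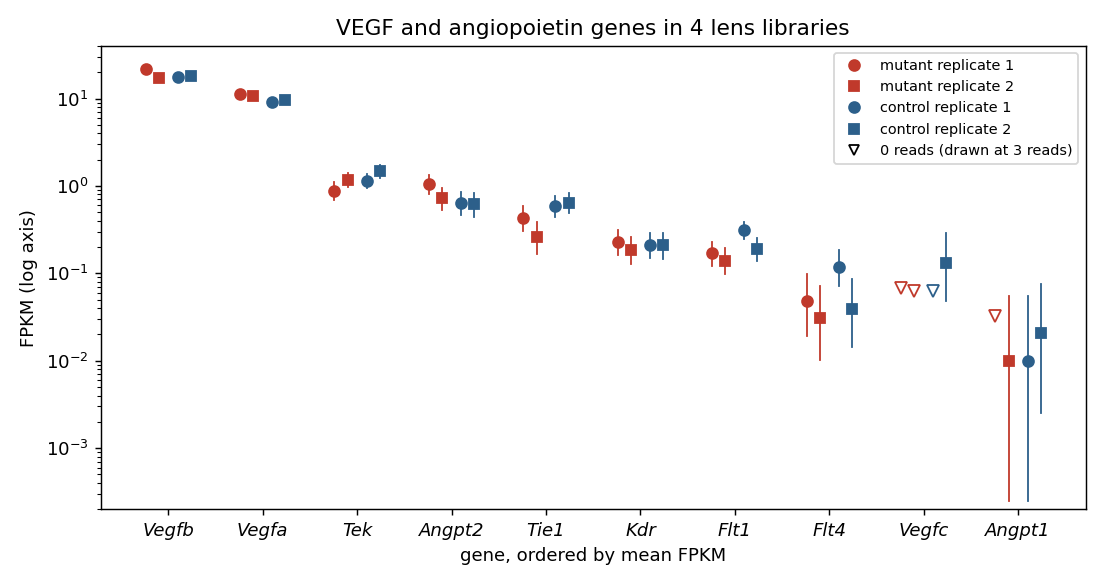
FPKM (log axis) of the 10 genes in each library, ordered by mean level, with mutant libraries in red, control libraries in blue, replicate 1 as circles and replicate 2 as squares. Bars are exact 95% Poisson intervals for counting error only and open triangles are libraries with 0 reads, drawn at the level of 3 reads. *Vegfb* and *Vegfa* sit above 9 FPKM in every library and all receptors below 1.5 FPKM.

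None of the 10 genes differed between the genotypes at an adjusted p under 0.05. The filter of a mean FPKM of at least 0.1 left 7 of them, *Vegfa*, *Vegfb*, *Flt1*, *Kdr*, *Angpt2*, *Tek* and *Tie1*, among 15997 genes tested on log2(FPKM + 0.1) with limma, where 6 genes or 0.0375% were called. At an unadjusted p under 0.05 stood 0 of the 7, against 6.31% of all genes (3.39% higher and 2.92% lower in mutant lenses). Limma's voom on the recovered reads called 0 of the 7 after adjustment, against 0.0875% of all genes, and gave 1 of them, *Tie1*, an unadjusted p under 0.05, against 7.36%. In *Vegfa* and *Angpt2* both mutant libraries lay above both control libraries, as in 18.2% of all genes tested, and in *Flt1* and *Tie1* both lay below, as in 18.3%. In the other 3 the groups overlapped. The median log2 fold change, mutant over control, was -0.01 over the 7 genes and 0.0041 over all genes tested.

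*Vegfa* (ENSMUSG00000023951, chromosome 17, 46327919 to 46343295 on the minus strand in the deposited table, for which the labels name the build mm39) lay at 11.2 and 10.7 FPKM in mutant and 9.04 and 9.62 FPKM in control replicates 1 and 2, from 856, 897, 753 and 760 reads. Both mutant libraries were the higher ones. The means were 10.9 ± 0.363 and 9.33 ± 0.413 FPKM (SD, n = 2 libraries each), a difference larger than either SD. The fold change was 1.17 with a 95% interval of 0.988 to 1.39 (log2 0.23, standard error 0.10, limma adjusted p = 0.806). It was the member whose change was bounded most tightly. Leaving out any 1 library kept its log2 fold change between 0.18 and 0.27. These values sum all *Vegfa* splice forms.

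*Vegfb* (ENSMUSG00000024962, chromosome 19, 6959841 to 6965019, minus strand) encodes a ligand of *Flt1* linked to lipid handling and cell survival more than to vessel growth. It lay at 21.7 and 17.3 FPKM in mutant and 17.6 and 18.0 FPKM in control libraries. Mutant replicate 1 was the highest and mutant replicate 2 the lowest, so that the groups overlapped. The means of 19.5 ± 3.10 and 17.8 ± 0.300 FPKM differed by less than the SD of the mutant libraries (fold change 1.09, 95% interval 0.860 to 1.37, limma adjusted p = 0.849). Without mutant replicate 1 the log2 fold change was -0.04.

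*Vegfc* (ENSMUSG00000031520, chromosome 8, 54530641 to 54640131, plus strand), the lymphatic growth factor, had 6 reads in control replicate 2, or 0.133 FPKM, and was listed at 0 in the other 3 libraries. A count of 0 allows up to 0.0687 and 0.0626 FPKM in mutant replicates 1 and 2 and 0.0630 FPKM in control replicate 1, taking 3 reads as the limit. The exact 95% Poisson interval of the 6 reads was 2.20 to 13.1 reads, which covers counting error only. No difference was detectable at this depth, and the gene was not tested.

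The receptors were read from few reads, and in bulk lenses fewer cells of a type and less RNA per cell cannot be told apart. *Flt1* (ENSMUSG00000029648, chromosome 5, 147498414 to 147662821, minus strand) had 41 and 37 reads in mutant and 82 and 47 reads in control libraries, or 0.170 and 0.140 against 0.312 and 0.189 FPKM. Both mutant values lay below both control values, but the control libraries stood further from each other than control replicate 2 stood from the mutant libraries. The exact 95% Poisson intervals of the control libraries, 65.2 to 102 and 34.5 to 62.5 reads, did not overlap. The fold change was 0.738 (95% interval 0.360 to 1.51, limma adjusted p = 0.823), and without control replicate 1 the log2 fold change moved from -0.44 to -0.18. Reads of the soluble *Flt1* form, which lacks the kinase, are not told from those of the full receptor.

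*Kdr* (ENSMUSG00000062960, chromosome 5, 76093487 to 76139118, minus strand) had 37 and 33 mutant and 37 and 35 control reads. The FPKM of 0.230 and 0.187 in mutant replicates enclosed the 0.211 and 0.210 of the control replicates. The fold change was 0.990 with a 95% interval of 0.522 to 1.88 (limma adjusted p = 0.997), so that a change within these bounds was not detectable at this depth. *Flt4* (ENSMUSG00000020357, chromosome 11, 49500090 to 49543566, plus strand) had 7 and 5 mutant and 19 and 6 control reads, or 0.0477 and 0.0310 against 0.119 and 0.0395 FPKM. Control replicate 1 stood above the other 3 libraries, as it did for *Flt1*, and the gene was below the level tested.

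*Angpt2* (ENSMUSG00000031465, chromosome 8, 18740279 to 18791578, minus strand) lay at 1.05 and 0.720 FPKM in mutant and 0.641 and 0.617 FPKM in control libraries, from 69, 52, 46 and 42 reads. Both mutant libraries were higher, mutant replicate 1 by the wider margin. The means were 0.884 ± 0.233 and 0.629 ± 0.0167 FPKM (SD, n = 2), and the fold change was 1.33 (95% interval 0.881 to 2.01, limma adjusted p = 0.811). Without mutant replicate 1 the log2 fold change dropped from 0.41 to 0.17. The gene lies inside *Mcph1*, a gene of the opposite strand with 62 and 29 mutant and 42 and 23 control reads, and whether counting used the strand is not given in the sources used here. Among the libraries, mutant replicate 1 was the highest for both genes.

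*Angpt1* (ENSMUSG00000022309, chromosome 15, 42288119 to 42540373, minus strand) had 0 and 1 reads in mutant and 1 and 2 reads in control libraries, at most 0.0208 FPKM. The 3 reads that a count of 0 allows correspond to 0.0323 FPKM in mutant replicate 1, above every measured value. No group difference was detectable at this depth. Over the 4 libraries *Angpt1* had 4 reads against 209 of *Angpt2*. *Gm17473*, a long non-coding RNA gene of the opposite strand that overlaps *Angpt1*, had 0 reads in each library.

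*Tek* (ENSMUSG00000006386, chromosome 4, 94627526 to 94763213, plus strand), the angiopoietin receptor, was the most abundant of the 5 receptors. It lay at 0.881 and 1.17 FPKM in mutant and 1.15 and 1.47 FPKM in control libraries, from 74, 108, 105 and 128 reads. Mutant replicate 1 was the lowest and control replicate 2 the highest, and mutant replicate 2 lay above control replicate 1. The fold change was 0.797 (95% interval 0.544 to 1.17, limma adjusted p = 0.811), with means of 1.03 ± 0.205 and 1.31 ± 0.232 FPKM. The log2 fold change of -0.33 moved to -0.14 without mutant replicate 1 and to -0.16 without control replicate 2.

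*Tie1* (ENSMUSG00000033191, chromosome 4, 118328388 to 118347258, minus strand) had the largest log2 fold change of the 7 members tested, a place it lost to *Angpt2* and *Tek* without mutant replicate 2 and to *Flt1* without control replicate 2. It lay at 0.433 and 0.260 FPKM in mutant and 0.586 and 0.640 FPKM in control libraries, from 38, 25, 56 and 58 reads. Both mutant libraries were below both control libraries. The means were 0.347 ± 0.123 and 0.613 ± 0.0383 FPKM (SD, n = 2), a difference larger than either SD. The fold change was 0.615 with a 95% interval of 0.369 to 1.02 (log2 -0.70, standard error 0.29, limma adjusted p = 0.805). Voom on the recovered reads gave a log2 fold change of -0.87 (adjusted p = 0.575). Over all settings tried its log2 fold change stayed below 0, from -0.99 (without mutant replicate 1) to -0.26 (pseudocount of 1), and without mutant replicate 2 it was -0.42, and its adjusted p lay between 0.575 and 0.895.

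**Figure D2:**
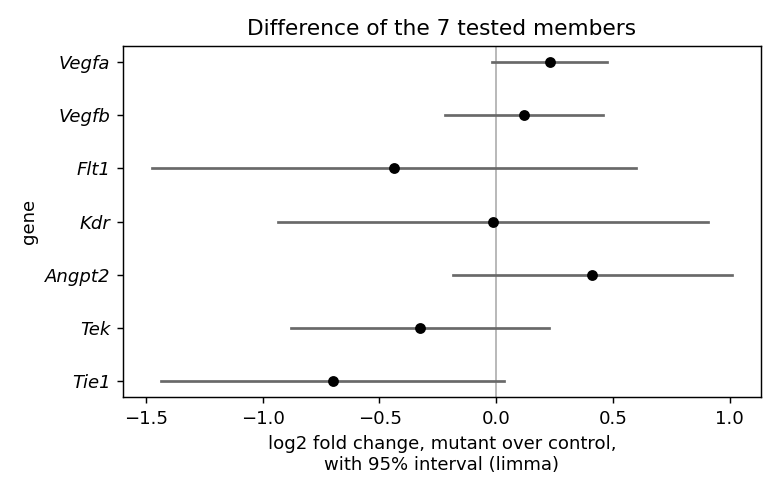
Log2 fold change (mutant over control, x axis) of the 7 genes that passed the filter, with 95% intervals from limma on log2(FPKM + 0.1). Every interval crosses 0; that of *Vegfa* is the narrowest and that of *Tie1* ends at 0.03.

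Summed over the 5 receptors, FPKM were 1.76 and 1.79 in mutant and 2.37 and 2.55 in control libraries, and the groups did not overlap. *Tek* gave the largest part of each sum, with 0.881 and 1.17 against 1.15 and 1.47 FPKM, and its own groups overlapped. Those of *Kdr* and *Flt4* overlapped too, whereas *Flt1* and *Tie1* were lower in both mutant libraries. How often such sums do not overlap was not counted. The summed *Vegfa* and *Vegfb* were 32.9 and 28.0 FPKM in mutant and 26.6 and 27.6 FPKM in control libraries. The ratio of these ligands to the receptors was 18.7 and 15.6 in mutant and 11.2 and 10.8 in control libraries. These sums were formed after the values had been seen and were given no test.

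The receptors and *Angpt2* are genes of vessels, so endothelial markers were summed beside them. All 20 markers had reads in every library, among them *Cldn5* (a tight junction protein, 3.57 to 5.94 FPKM) and *Egfl7* (a secreted vessel protein, 2.27 to 2.93 FPKM), and their sum was 16.5 and 11.4 FPKM in mutant and 18.2 and 13.5 FPKM in control libraries. The groups overlapped, and their means of 13.9 ± 3.61 and 15.9 ± 3.34 FPKM differed by less than the SD. Of the 18 markers tested, 2 were higher and 16 lower in mutant lenses (median log2 fold change -0.36, against 0.0041 over all genes), and 0 passed the adjusted threshold. *Esam*, an endothelial adhesion molecule, was the 1 of the 18 with an unadjusted p under 0.05 (5.56%, against 6.31% of all genes), with 0.509 and 0.445 against 0.861 and 0.870 FPKM (limma adjusted p = 0.687).

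Divided by the endothelial sum of its library, *Tie1* was 2.63% and 2.28% in mutant and 3.21% and 4.73% in control libraries. *Angpt2* was 6.36% and 6.33% in mutant against 3.51% and 4.57% in control libraries. Both kept their order between the groups on this scale, as did *Flt1* with 1.03% and 1.23% against 1.71% and 1.40%. *Flt4* was 0.289% and 0.273% against 0.650% and 0.292%, with control replicate 2 barely above the mutant libraries, and *Kdr* and *Tek* overlapped still. *Tek* was near 10% in mutant replicate 2 (10.3%) and control replicate 2 (10.9%) and lower in mutant replicate 1 (5.35%) and control replicate 1 (6.28%), so that each genotype had 1 library on either side. This scale was chosen after the values had been seen and was given no test.

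**Figure D3:**
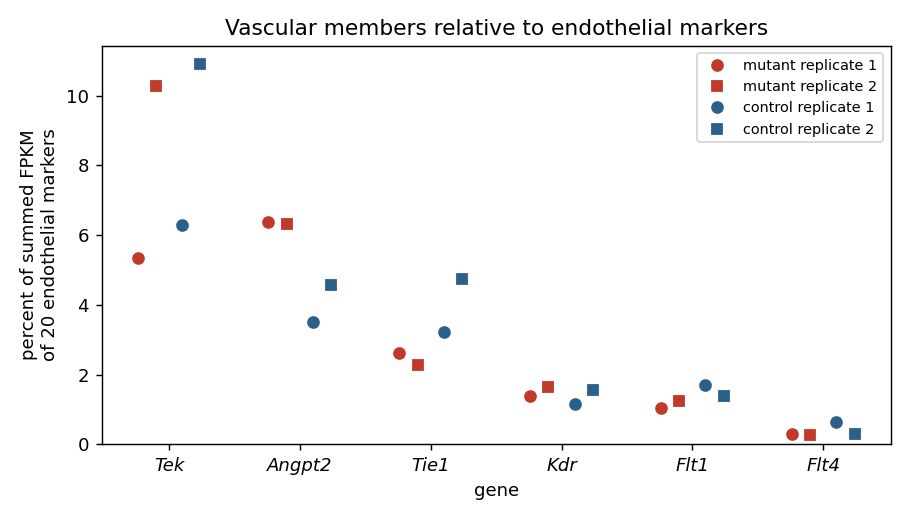
FPKM of 6 vascular genes as percent of the summed FPKM of 20 endothelial markers in the same library (y axis), by library, with mutant in red, control in blue, replicate 1 as circles and replicate 2 as squares. *Angpt2* sits near 6.3% in both mutant libraries and below 4.6% in both control libraries; *Tie1* is lower in both mutant libraries.

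Tip cell markers, which mark the leading cells of growing sprouts, summed to 2.55 and 2.10 FPKM in mutant and 3.42 and 2.88 FPKM in control libraries. Of the 8, 1 was higher and 7 lower (median log2 fold change -0.20), and *Unc5b*, a guidance receptor of tip cells, had the only unadjusted p under 0.05 (1 of 8, against 6.31% of all genes) with 0.350 and 0.498 against 1.03 and 0.702 FPKM (limma adjusted p = 0.749). *Nid2*, a basement membrane protein, overlapped between groups at 0.336 to 0.510 FPKM. Mural cell markers, of the pericytes and smooth muscle around vessels, summed to 19.6 and 16.7 against 18.4 and 18.8 FPKM. The smooth muscle actin gene *Acta2* gave 9.79 to 12.6 FPKM of this sum, whereas the smooth muscle genes *Tagln* and *Myh11* had at most 4 and 14 reads per library. Of the 8 tested, 4 were higher and 4 lower. Groups that did not overlap were higher in 1 and lower in 3 of the 8, against 18.2% and 18.3% of all genes tested. *Rgs5*, a pericyte gene, lay at 3.43 and 2.47 in mutant and 4.60 and 4.30 FPKM in control libraries (limma adjusted p = 0.736). The part of these cells in the values of *Tie1* and *Angpt2* was not tested.

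Of the 12 macrophage markers 5 were tested, and none of these passed the adjusted threshold. The 12 summed to 3.58 and 3.13 FPKM in mutant and 0.895 and 0.788 FPKM in control libraries, from 81, 90, 27 and 29 reads. Both mutant values lay above both control values in 8 of the 12, of which 5 passed the filter. The share among all genes that passed the filter was 18.2%. Among genes under the filter it was not counted, so the 8 of 12 has no matched share. Several of the 8 rested on 0 to 2 control reads per library. In the other 4 the groups overlapped. *Tyrobp*, an adaptor of myeloid receptors, had 1.35 and 0.689 against 0 and 0.0813 FPKM (limma adjusted p = 0.348), and *C1qa*, a complement gene, 1.02 and 0.638 against 0.445 and 0.261 FPKM (limma adjusted p = 0.761). *C1qb* and *C1qc* lay in the same order. Only 5 of the 12 passed the filter, which high values in 1 group can decide. Macrophages accompany hyaloid vessels and can make VEGF-A, and their part in the *Vegfa* values was not tested.

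Tested were 3 of 5 red cell markers, 4 of 10 retina markers, 5 of 8 ciliary body and pigment cell markers and 4 of 8 fibroblast markers. None of those tested passed the adjusted threshold, and the rest fell under the filter. Red cell markers summed to 25.2 and 17.2 FPKM in mutant and 34.9 and 21.6 FPKM in control libraries, nearly all from the globin genes *Hba-a1* and *Hbb-bs*, with *Hba-a2* listed at 0 in all libraries. Retina markers summed to 0.343 and 2.95 against 1.19 and 0.488 FPKM, and among them *Rcvrn*, a calcium sensor of photoreceptors, had 3 and 7 against 0 and 6 reads. Ciliary body and pigment cell markers summed to 13.7 and 14.2 against 11.7 and 10.5 FPKM, and their highest gene *Optc*, made by the ciliary epithelium, had 11.5 and 12.1 against 9.67 and 7.90 FPKM (limma adjusted p = 0.736). *Trpm1*, an ion channel of pigment cells, was next with a mean of 0.887 FPKM. Of the 5 tested in this list, 3 were higher and 2 lower in mutant lenses. The 2 lower ones were the pigment genes *Pmel*, with 0.245 and 0.134 against 0.269 and 0.544 FPKM, and *Tyrp1*, with 0.317 and 0.542 against 0.527 and 0.729 FPKM. Fibroblast markers summed to 6.74 and 8.35 against 8.88 and 8.28 FPKM, with *Lum* listed at 0 in all libraries. *Dcn* had 0 and 4 against 0 and 0 reads, and *Dpt* 0 and 0 against 0 and 3 reads. Most of the sum came from *Pdgfra* (4.02 and 5.25 against 5.86 and 5.32 FPKM) and *Col6a3* (1.71 and 1.78 against 2.22 and 2.14 FPKM). The sum thus mainly follows these genes and is no measure of fibroblast number, and which cells made them was not tested. The collagen gene *Col1a1* lay at 0.239 and 0.311 against 0.0470 and 0.0744 FPKM. Of the 4 fibroblast markers tested, 2 were higher and 2 lower in mutant lenses. None of these lists was tested as a source of the values of the 10 genes.

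**Figure D4:**
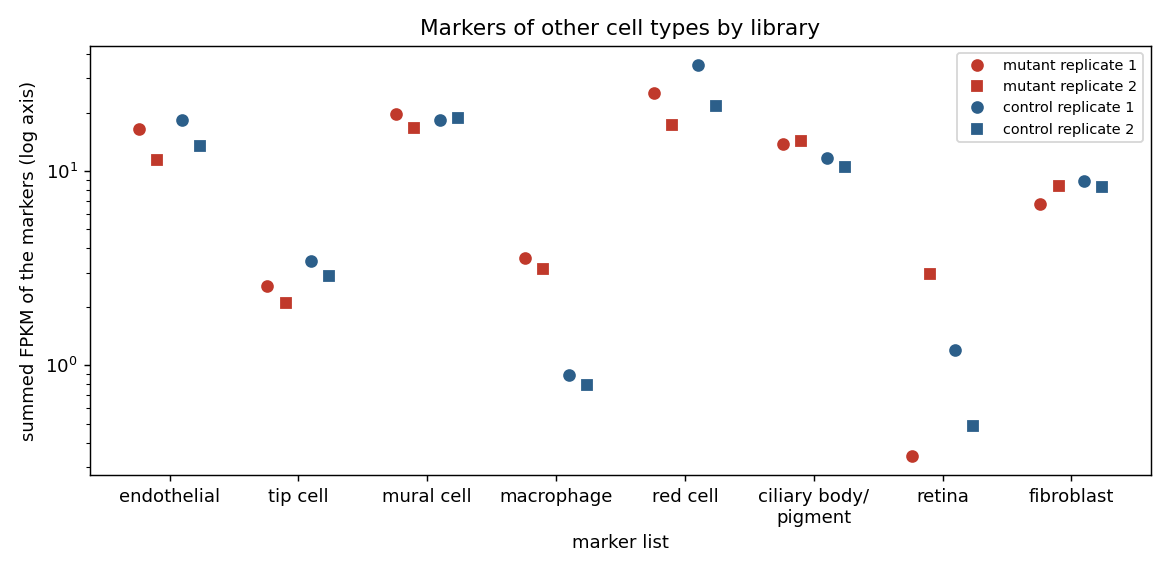
Summed FPKM (log axis) of marker lists of cell types other than lens cells, by library, with mutant in red, control in blue, replicate 1 as circles and replicate 2 as squares. Macrophage markers sit above 3 FPKM in both mutant libraries and below 1 in both control libraries, whereas endothelial markers overlap between the groups.

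In 5 lists of the surrounding pathway 0 of the 53 genes tested passed the adjusted threshold, and 6 or 11.3% had an unadjusted p under 0.05 against 6.31% of all genes, 1 higher and 5 lower in mutant lenses. Of 12 further ligands, co-receptors and partners, 7 were tested, 2 higher and 5 lower in mutant lenses (median log2 fold change -0.32), and 2 had an unadjusted p under 0.05. *Pgf*, placental growth factor, a ligand of *Flt1*, lay at 1.84 and 1.74 FPKM in mutant and 2.83 and 2.60 FPKM in control libraries, a log2 fold change of -0.58 (95% interval -0.91 to -0.25, limma adjusted p = 0.612). Both mutant values lay well below both control values, and the smallest control count was 139 reads against 99 for the largest mutant count. *Plxnd1*, a semaphorin receptor of endothelial cells, lay at 0.722 and 0.679 against 1.34 and 0.996 FPKM (log2 fold change -0.65, limma adjusted p = 0.748). *Nrp1*, the co-receptor of VEGF-A, lay at 0.206 and 0.214 against 0.279 and 0.322 FPKM with an interval that crossed 0. *Sema3f*, a repellent of vessels, overlapped at 1.71 to 2.34 FPKM.

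*Vegfa* is a target of the hypoxia-inducible factors, so their genes were set beside it. Of 10 genes of oxygen sensing, 1 was higher and 9 lower in mutant lenses (median log2 fold change -0.21). At an unadjusted p under 0.05 stood 2 of the 10, against 6.31% of all genes. *Epas1*, the factor typical of endothelium, lay at 0.813 and 0.676 FPKM in mutant and 1.46 and 1.24 FPKM in control libraries (log2 fold change -0.78, 95% interval -1.26 to -0.31, limma adjusted p = 0.643). *Vhl*, which marks the factors for degradation, lay at 3.82 and 4.07 against 5.01 and 4.80 FPKM (log2 fold change -0.31, limma adjusted p = 0.774). The prolyl hydroxylase *Egln1*, which senses oxygen, lay at 12.7 and 11.8 against 14.6 and 13.8 FPKM (limma adjusted p = 0.809). *Hif1a* was the most abundant of the list, and its 16.6 and 20.4 FPKM in mutant libraries overlapped the 20.6 and 20.3 FPKM of the controls.

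**Figure D5:**
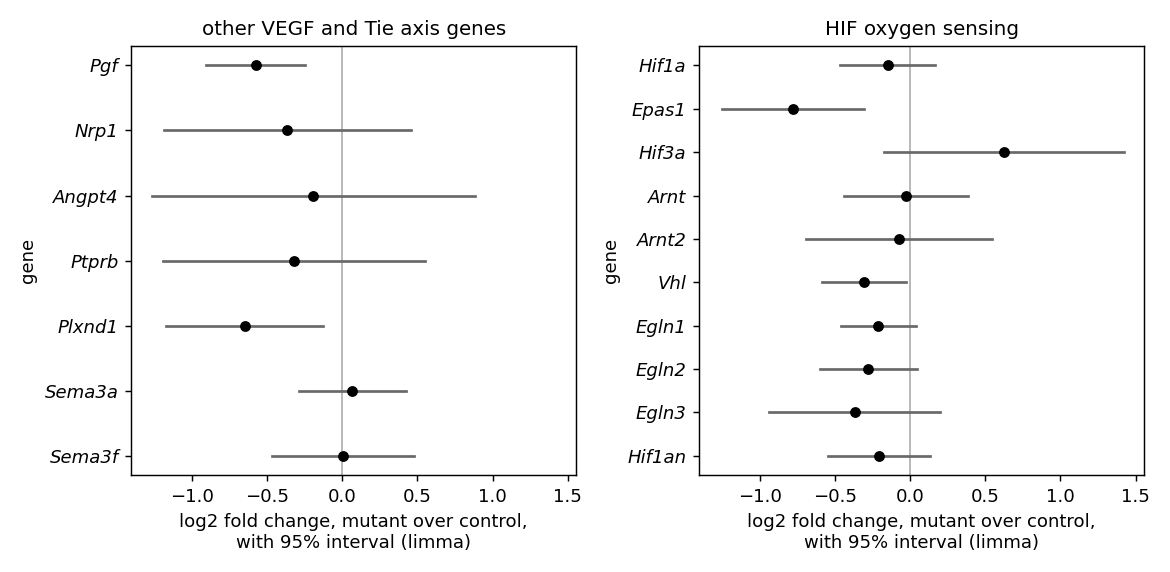
Log2 fold change (mutant over control, x axis) with 95% limma intervals for the 7 tested genes of the wider VEGF and Tie axis (left) and the 10 genes of oxygen sensing (right). The intervals of *Pgf*, *Plxnd1*, *Epas1* and *Vhl* lie below 0 before adjustment; the others cross 0.

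Genes that hypoxia induces did not share a direction. Of 14, 13 were tested, 9 higher and 4 lower in mutant lenses (median log2 fold change 0.06). *Bnip3*, a mitophagy receptor, had the only unadjusted p under 0.05 (1 of 13, against 6.31% of all genes). Its values were 17.2 and 16.0 FPKM in mutant and 11.7 and 12.5 FPKM in control libraries (log2 fold change 0.45, limma adjusted p = 0.580). The most abundant, *Ndrg1* with 97.9 to 113 FPKM and *Bnip3l* with 51.6 to 57.4 FPKM, overlapped between the groups. Of 14 relays of VEGF receptor signalling, 13 were tested, 5 higher and 8 lower (median log2 fold change -0.06). Of these 13, 0 had an unadjusted p under 0.05, against 6.31% of all genes. The highest were the heat shock protein gene *Hspb1* at 924 to 1395 FPKM and the calcineurin regulator *Rcan1* at 8.18 to 10.1 FPKM.

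Among inhibitors of vessel growth the highest were *Sparc* and *Col4a3*. *Sparc*, a matrix protein that binds VEGF-A, lay at 234 and 238 FPKM in mutant and 260 and 238 FPKM in control libraries, and *Col4a3*, a basement membrane collagen whose fragment tumstatin is antiangiogenic, at 12.6 to 15.4 FPKM. Of 12 such genes, 10 were tested, 2 higher and 8 lower in mutant lenses (median log2 fold change -0.10). *Vash1*, which endothelial cells make in response to VEGF, had the only unadjusted p under 0.05 (1 of 10, against 6.31% of all genes). Its values were 0.302 and 0.531 against 0.752 and 1.04 FPKM, from 14, 27, 38 and 50 reads (log2 fold change -0.97, limma adjusted p = 0.749).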

How the data were processed

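Libraries were made from polyA RNA of pooled lenses. The authors used Hisat2 for alignment and featureCounts for gene counts, and deposited FPKM for 56748 genes in 4 libraries. The authors tested counts with DESeq2. The labels name the build mm39. FPKM multiplied by the deposited gene length were whole multiples of a single step for 100% of values above 0 in each library (tolerance 0.001 reads), which gave the recovered reads. All per-sample columns of the table were used.

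Each library had the same median ratio to the genes' geometric means, 1.01, so values were used as deposited. Genes with a mean of at least 0.1 FPKM were tested two-sided on log2(FPKM + 0.1), over all 15997 genes at once, by a limma linear model whose moderated variances followed a trend in mean level, with Benjamini-Hochberg adjustment. A fold change on this scale understates the change of genes with low FPKM. Genes under the filter have values and no test. Voom with trimmed-mean (TMM) scaling was run on recovered reads. Poisson intervals and the 3-read limit cover counting error only.

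The 10 genes and all other lists were chosen with earlier results of these data known. Named genes were the 10, *Pdgfrb*, *S100a4*, genes overlapping a member, and from each list up to 4 genes with an unadjusted p under 0.05 and groups that did not overlap, plus the 2 with the highest mean FPKM, and some of these are not reported here. The tests were tried on simulated reads first. Promoters came from RefSeq on GRCm38.p6, and no coordinate was moved between builds. Software was R 4.3.3, limma 3.58.1, Python 3.11.15, numpy 2.4.6, pandas 2.3.3, scipy 1.17.1 and matplotlib 3.10.9.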

Additional observations from a re-analysis of the deposited data

How the results depend on the processing

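The 7 genes tested had 25 to 897 reads per library, and 2 libraries per group limit every interval. In every setting 0 of the 10 genes had an adjusted p under 0.05. The settings were pseudocounts of 0.01 and 1, no filter, a minimum of 1 FPKM, limma without a trend, voom, scaling to all recovered reads or to those outside crystallins, the replicate block, a covariate that splits libraries by *Xist* level, and each library left out. At an unadjusted p under 0.05 stood 1 of them with voom (*Tie1*), against 7.36% of all genes. Without a filter 1 reached it (*Vegfa*), and with scaling to all recovered reads 1 (*Tie1*). The share over all genes was not counted in either of these settings, so these counts have nothing to be read against. With each library left out, the lone library is assumed to vary like the others. With each library left out the log2 fold change of *Vegfb* ranged from -0.043 to 0.282, reversed without mutant replicate 1, and that of *Kdr* from -0.115 to 0.0872, reversed without mutant replicate 2. The sign held for the other 5 genes tested in all settings that tested them. The groups did not overlap in 4 of the 7 genes tested, 2 higher and 2 lower, against 18.2% higher and 18.3% lower of all genes tested. They did not overlap in 4 under both other scalings. Relative to the endothelial sum (a scale added after seeing the data) they did not overlap in 3, and *Vegfa* overlapped. That sum itself ranged from 11.4 to 18.2 FPKM over the libraries. It was formed for the vessel genes, so this scale is no check on *Vegfa*. The share over all genes was not counted on these other scales. Of the 53 tested genes in the 5 pathway lists, 6 had an unadjusted p under 0.05, and 2 to 8 with each library left out (3 without mutant replicate 1, 2 without control replicate 1 and 3 without control replicate 2). The endothelial sum differed by -1.96 FPKM (mutant minus control), within its pooled SD of 3.48, and by -4.51 to 0.60 FPKM with each library left out. Same-numbered libraries share only a number, and their deviations correlated at -0.0051 over 15997 genes. With the replicate block 3 genes of all were called in place of 6 and 0 of the 10 members, and *Tie1* had an adjusted p of 0.883.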

Other observations

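Over the 4 libraries, the tested gene whose log2(FPKM + 0.1), centred on its own mean, lay closest to that of *Vegfa* was *Cep131*, with a root mean square difference of 0.0026, followed by *Fanca* (0.0051) and *Fam104a* (0.0070). For *Kdr* the closest were *Plat* (0.0069), *Phf12* (0.0086) and *Slc2a12* (0.0087). With 4 libraries such likeness is common: 252 tested genes lay within 0.05 of *Vegfa* and 329 within 0.05 of *Kdr*.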
